A study of Homo sapiens with 6 samples.

Results

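S100P and 8 related genes were followed in C42 cells carrying an shRNA against NSD2 (shNSD2), set against C42 cells carrying a control shRNA (shCTR). C42, usually written C4-2, is a human prostate cancer line derived from LNCaP. The genes were chosen by name, from the S100 calcium-binding family together with the S100P-binding protein S100PBP, with their shNSD2 and shCTR counts already known. The levels and differences of the 9 genes below are therefore descriptions and support no test. Of the 9 names, 8 have a row among the 31413 genes of the table; S100A6 was not analysed here. Of these 8, 6 passed the low-count filter and entered the fit of 17160 genes, and S100A14 and S100A16 did not. Each group held 3 libraries of polyadenylated RNA, numbered 1, 2 and 3 for shNSD2 and 1, 2 and 4 for shCTR, all from cells grown in RPMI with serum. Separate cultures, clones or pools of cells, and the number of shRNA sequences are not described in the labels. The p-values therefore cover variation among these 6 libraries, some or all of which may be technical.

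S100 proteins are small, mostly dimeric proteins that bind calcium through a pair of EF-hand loops and then expose a surface that grips partner proteins such as annexins, ezrin, myosin and p53. Several are also secreted and bind the receptor RAGE, encoded by AGER. Most S100 genes lie in a cluster on the long arm of chromosome 1, while S100P lies apart on chromosome 4. S100P has been followed in prostate, pancreatic and other carcinomas as a secreted and intracellular protein of tumour cells. NSD2 (the WHSC1 of the treatment label) encodes an enzyme that methylates histone H3 at lysine 36.

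The regions just before the starts of S100P, S100A11 and S100A4 are shown because these are the 3 members called below, a choice made from the same values. S100A4 has few counts and could enter the test only by being higher in shCTR. Each line gives the 250 bases before the RefSeq start on GRCh38.p14, 5′ to 3′ on the strand of the gene. The position of each is chr4:6693628-6693877 on the plus strand for S100P, chr1:152037005-152037254 on the minus strand for S100A11 and chr1:153545807-153546056 on the minus strand for S100A4. Capitals mark the motifs found.
S100P: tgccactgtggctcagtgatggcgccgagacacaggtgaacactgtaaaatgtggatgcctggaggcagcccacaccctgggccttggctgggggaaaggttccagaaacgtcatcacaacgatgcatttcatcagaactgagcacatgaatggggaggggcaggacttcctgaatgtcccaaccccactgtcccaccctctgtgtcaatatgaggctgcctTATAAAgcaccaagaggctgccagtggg
S100A11: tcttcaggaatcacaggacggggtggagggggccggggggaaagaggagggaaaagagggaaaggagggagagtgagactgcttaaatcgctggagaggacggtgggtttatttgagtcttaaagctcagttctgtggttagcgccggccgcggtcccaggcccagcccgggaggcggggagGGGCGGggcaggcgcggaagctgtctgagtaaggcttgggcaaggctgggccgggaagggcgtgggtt
S100A4: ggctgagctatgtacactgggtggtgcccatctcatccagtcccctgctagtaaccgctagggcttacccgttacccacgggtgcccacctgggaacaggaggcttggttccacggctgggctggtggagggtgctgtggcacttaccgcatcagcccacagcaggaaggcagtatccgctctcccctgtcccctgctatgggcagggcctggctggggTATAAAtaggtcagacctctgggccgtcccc
Both strands were searched for the TATA box letters TATAAA, for the motif known as the CCAAT box, for GGGCGG as the GC box, for the AP-1 motif written TGANTCA, for an E-box spelled CACGTG and for the STAT motif spelled TTCNNNGAA. These motifs do not overlap one another in the windows shown. S100P and S100A4 each held 1 TATAAA, beginning 28 and 31 bases before the start, a motif present in 10.7% of 35116 RefSeq windows of this length. S100A11 held no TATAAA and 1 GGGCGG, present in 42.6% of windows. Neither motif was confined to called members. Among tested members not called, 1 S100A13 window held TATAAA, beginning 29 bases before its start. The S100A10 window and 1 S100PBP window held GGGCGG. CG dinucleotides numbered 4 before S100P, 15 before S100A11 and 7 before S100A4, against a median of 11 over all windows. Of the other motifs, the CCAAT box occurs in 32.0% of windows, the AP-1 motif in 6.57%, the E-box in 6.34% and the STAT motif in 6.57%, and the 3 windows printed above held none of them. A match to these letters is a description and not a binding site. In GENCODE 29 the longer S100P transcript starts upstream, so the S100P window lies within its first exon.

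NSD2 transcript was at 85.1, 86.2 and 89.5 CPM in shNSD2 1, 2 and 3 and at 219, 222 and 199.8 CPM in shCTR 1, 2 and 4, which leaves 40.7% of the control level in shNSD2 cells. CPM are read counts scaled to a common library size with TMM factors. Total counts were 19412896 to 20665494 per library, and a floor of 3 counts corresponds to 0.144 to 0.156 CPM, which covers counting error only. The luminal prostate markers KLK3 and KRT8 were abundant. KLK3 averaged 5820 ± 219.6 CPM in shNSD2 and 6616 ± 357 CPM in shCTR, and KRT8 averaged 496 ± 43.8 CPM in shNSD2 and 372 ± 46.5 CPM in shCTR (SD, n = 3 each). Of 7 leukocyte markers 4 had a row, with a sum of 0.359 to 1.07 CPM in shNSD2 and 0.625 to 0.732 CPM in shCTR. Basal and squamous markers, 2 of 6 with a row, summed to 0.662 to 1.44 CPM in shNSD2 and 0.676 to 1.61 CPM in shCTR. Fibroblast and endothelial markers, 5 of 7 with a row, summed to 9.39 to 10.97 CPM in shNSD2 and 8.12 to 8.98 CPM in shCTR, mostly from VWF. VWF was called higher (log2 fold change 0.43, edgeR adjusted p = 0.0273), while the fibroblast collagen gene COL3A1 had 4, 7 and 4 counts in shNSD2 libraries and 29, 25 and 19 in shCTR libraries and was called lower, having passed the low-count filter only through shCTR. The fibroblast and endothelial sum did not overlap between the groups, and its part in the results was not tested.

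Among the 6 tested members, S100P and S100A11 rose, S100A4 fell, and S100A10, S100A13 and S100PBP were not called. A gene was called at an adjusted p under 0.05 in edgeR's quasi-likelihood test. Over all tested genes 30.7% were called, 15.5% higher and 15.2% lower, and since the members were picked with this contrast known, nothing is read from their count of 3. The CPM ranges of the groups did not overlap for 3 of the 6, a property of 46.8% of all tested genes. The median log2 fold change was 0.23 over the 6 members and 0.01 over all tested genes.

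**Figure D1:**
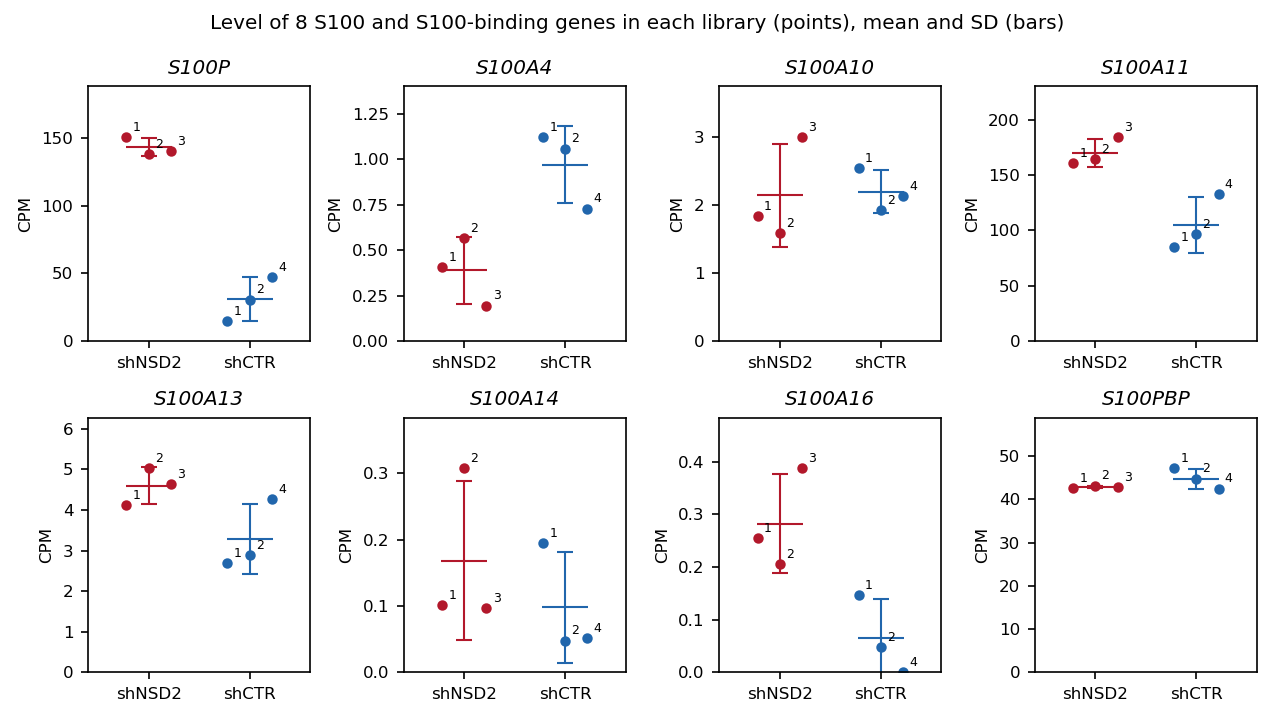
Level of each of the 8 genes with a row in CPM (linear axes starting at 0), shNSD2 left of shCTR; points are libraries with their numbers, bars the mean and SD. S100P lies between 139 and 151 CPM in shNSD2 and between 14.9 and 47.4 CPM in shCTR. The control nearest the shNSD2 mean is shCTR 4 for S100P, S100A4, S100A10, S100A11, S100A13 and S100PBP.

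S100P showed the widest difference of the 6 tested members. Its reads numbered 2967, 2704 and 2900 in shNSD2 1, 2 and 3, against 306, 636 and 911 in shCTR 1, 2 and 4. On the CPM scale these are 151, 139 and 140.4 in shNSD2 libraries and 14.9, 30.6 and 47.4 in shCTR libraries. Every shNSD2 library therefore stood well above every shCTR library, and the lowest value belonged to shCTR 1. Means were 143 ± 6.73 CPM in shNSD2 and 31.0 ± 16.2 CPM in shCTR (SD, n = 3 each), a 4.63-fold difference with a log2 fold change of 2.21 (SE 0.30).

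The spread of S100P lay in the controls. Its highest and lowest libraries differed 1.09-fold within shNSD2 and 3.17-fold within shCTR. On the log2 scale shCTR 4 stood 41.9% of the way from the mean of shCTR 1 and 2 to the mean of the shNSD2 libraries. The log2 fold change was 1.87 without shCTR 1 and 2.65 without shCTR 4, and S100P was called with any 1 library left out. In bulk RNA, more cells with S100P transcript and more transcript per cell cannot be told apart. S100P (ENSG00000163993) lies on chromosome 4 from 6693069 to 6697170 on the plus strand of GRCh38, on the same arm as NSD2, which lies from 1871424 to 1982207. Its main annotated transcript has 2 exons and encodes 95 amino acids.

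S100PBP, which encodes a mostly nuclear protein found through its binding to S100P, was not called and differed little between the groups. Its level was 42.6, 43.2 and 42.8 CPM in shNSD2 libraries and 47.1, 44.7 and 42.5 CPM in shCTR libraries, so the groups overlapped. The log2 fold change was -0.06 (SE 0.08). S100PBP (ENSG00000116497) lies on chromosome 1 from 32816767 to 32858879, on the short arm and far from the S100A cluster. Its exons share 396 bases with YARS, the tyrosyl-tRNA synthetase gene on the opposite strand, which rose by 0.40 on the log2 scale (SE 0.12, edgeR adjusted p = 0.0285). YARS kept its call in 1 of 6 fits without 1 library, that without shCTR 4, and its log2 fold changes in the others ran from 0.29 without shCTR 1 to 0.41 without shNSD2 3. With the strand setting of the counting not given, reads from the shared bases cannot be assigned to either gene.

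S100A11, whose protein binds annexin A1 and acts at membranes and in keratinocyte growth control, had the highest level of the 8 genes with a row, also per kb of merged exons. It stood at 161, 164 and 184 CPM in shNSD2 libraries, against 84.9, 96.7 and 133 CPM in shCTR libraries. The groups did not overlap, and shCTR 4 again came nearest to shNSD2, 61.1% of the way from the other controls. Means were 169.8 ± 12.7 CPM in shNSD2 and 105 ± 25.0 CPM in shCTR (SD, n = 3 each), a 1.62-fold difference with a log2 fold change of 0.70 (SE 0.15). S100A11 was called with any 1 library left out, with log2 fold changes of 0.56 without shCTR 1 to 0.90 without shCTR 4. The gene (ENSG00000163191) lies on chromosome 1 from 152032506 to 152047907. Processed copies of S100A11 exist elsewhere in the genome, so some of its reads may be split among them.

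S100A4, known as metastasin for its part in cell motility through non-muscle myosin, was the member that fell. Its counts were only 8, 11 and 4 in shNSD2 libraries and 23, 22 and 14 in shCTR libraries. In CPM these are 0.407, 0.564 and 0.194 in shNSD2 and 1.12, 1.06 and 0.728 in shCTR, with no overlap and shCTR 4 again the nearest control. The log2 fold change was -1.32 (SE 0.38), a 2.50-fold lower level in shNSD2. Because S100A4 passed the low-count filter through its shCTR libraries, it could enter the test only by being higher there. The call was lost in 4 of the 6 fits without 1 library, with log2 fold changes of -1.36 without shNSD2 1, -0.996 without shNSD2 3, -1.22 without shCTR 1 and -1.26 without shCTR 2. It was also lost in the DESeq2 Wald test (log2 fold change -1.33).

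S100A13, which takes part in the release of FGF1 from cells, had 4.12, 5.02 and 4.65 CPM in shNSD2 libraries and 2.68, 2.89 and 4.27 CPM in shCTR libraries. The groups overlapped because shCTR 4 exceeded shNSD2 1, and the log2 fold change of 0.49 (SE 0.20) was not called. Without shCTR 4 the log2 fold change was 0.72 and was called. S100A13 shares 235 exon bases with S100A1 on the opposite strand and 536 with the noncoding gene AL162258.1 on its own strand, so part of its reads may belong to them.

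S100A10, or p11, has lost calcium binding and works as the permanent partner of annexin A2. It was scarce in these cells, at 1.83, 1.59 and 3.00 CPM in shNSD2 libraries and 2.54, 1.92 and 2.13 CPM in shCTR libraries. The highest and the lowest value of S100A10 both came from shNSD2, and the log2 fold change was -0.03 (SE 0.26). S100A14 had 2, 6 and 2 counts in shNSD2 libraries and 4, 1 and 1 in shCTR libraries. S100A16 had 5, 4 and 8 counts in shNSD2 libraries and 3, 1 and 0 in shCTR libraries. Both sit at or near the floor of 3 counts, so no fold is given for either.

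Per kilobase of merged exons, the order of mean levels was the same in both groups for the leading members. In shNSD2 libraries S100A11 had 249.6 CPM per kb, S100P 112, S100PBP 4.66, S100A13 2.07 and S100A10 1.39. In shCTR libraries the values were 154 for S100A11, 24.2 for S100P, 4.87 for S100PBP, 1.48 for S100A13 and 1.42 for S100A10, the last neighbours in the order differing by less than their spread. Of the summed level per kb of the 8 genes, S100P made up 28.1% to 32.5% in shNSD2 libraries and 7.999% to 15.4% in shCTR libraries. The share of S100A11 was 65.2% to 69.5% in shNSD2 libraries and 81.0% to 85.6% in shCTR libraries, although its own level rose. The long first exon of GENCODE's S100P transcript lowers its level per kb, and per kb of coding sequence S100P reached 503 CPM in shNSD2 and 109 CPM in shCTR.

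S100 transcripts are short, and short transcripts as a class differed between these libraries. Among 143 tested protein-coding genes with up to 1 kb of merged exons the median log2 fold change was 0.44, with 37.8% called higher and 5.59% lower. It was 0.30 for the 911 genes of 1 to 2 kb, 0.13 for 2 to 4 kb, -0.02 for 4 to 8 kb and -0.16 over 8 kb, where 8.43% were called higher and 29.7% lower. In the shortest class shCTR 4 also exceeded shCTR 1 and 2 by a median of 0.35 on the log2 scale. S100A11, with 680 bases, stood 0.70 higher and S100P, with 1280 bases, 2.21 higher. After each library's trend on exon length was removed, a correction chosen after the data were seen, the log2 fold changes were 2.06 for S100P, 0.58 for S100A11, 0.35 for S100A13 and -1.49 for S100A4. In that fit S100P and S100A11 were called and S100A13 was not, which is a description since the members were picked with this contrast known. S100A4 could again enter the test only through shCTR.

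**Figure D2:**
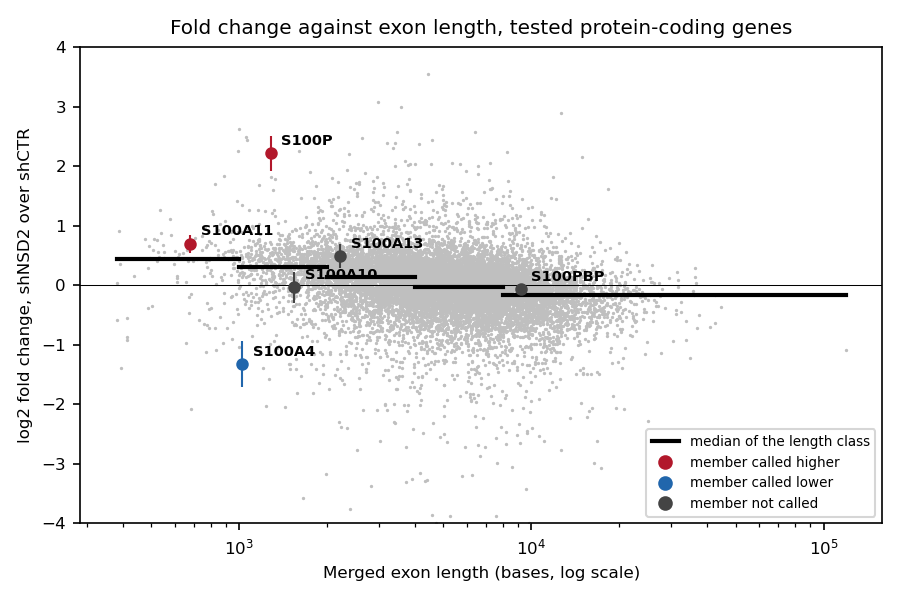
Log2 fold change of shNSD2 over shCTR (y axis) against merged exon length in bases (x axis, log scale) for tested protein-coding genes (grey), with the 6 tested members (points, bars SE) and the median of each length class (black lines). The medians fall from 0.44 in the shortest class to -0.16 in the longest, S100P lies far above its class, and S100A4 lies below it.

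Outside the members, few S100 genes gave signal. Of 13 other S100 names 4 had a row, and S100A1 and S100A2 passed the filter. S100A1, best known from heart muscle, fell to 1.22, 1.08 and 0.871 CPM in shNSD2 libraries, against 1.71, 1.83 and 1.56 CPM in shCTR libraries. Its log2 fold change was -0.69 (SE 0.23, edgeR adjusted p = 0.0453), the direction opposite to that of the overlapping S100A13. The S100A1 call was lost in the DESeq2 Wald test and in every fit without 1 library except that without shCTR 4. S100A2, a gene of basal and squamous epithelium, had 1.07, 1.64 and 0.968 CPM in shNSD2 libraries and 0.683, 1.01 and 0.676 CPM in shCTR libraries, with overlap and no call (log2 fold change 0.62, SE 0.30). S100A9, a defining myeloid S100 gene, had at most 5 counts in any library, and S100G at most 3.

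Fused-type S100 proteins join an S100 domain to long repeats and build the skin barrier. HRNR, the hornerin gene, rose to 6.57, 9.07 and 8.03 CPM in shNSD2 libraries, against 5.37, 3.801 and 4.47 CPM in shCTR libraries (log2 fold change 0.79, SE 0.17, edgeR adjusted p = 0.00848). TCHH, which encodes trichohyalin, fell to 0.713, 1.08 and 0.968 CPM in shNSD2 libraries, against 1.85, 1.83 and 1.46 CPM in shCTR libraries (log2 fold change -0.90, SE 0.25, edgeR adjusted p = 0.0221). The groups did not overlap for either gene. The TCHH call was kept only without shNSD2 2 or shCTR 4, and HRNR was called in each fit without 1 library. FLG, the filaggrin gene, was not called (0.35, SE 0.39).

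Of 15 tested receptors and binding partners of S100 proteins, 1 rose, 1 fell and 13 were not called, beside 15.5% higher and 15.2% lower over all tested genes, with a median log2 fold change of -0.00 beside 0.01 over all genes. AGER, the RAGE gene, had 2.34, 2.46 and 2.52 CPM in shNSD2 libraries and 1.81, 1.83 and 1.93 CPM in shCTR libraries, without overlap but without a call (log2 fold change 0.40, SE 0.18, edgeR adjusted p = 0.119). EZR, which encodes the S100P partner ezrin, had a log2 fold change of -0.02 (SE 0.08). MSN, the related membrane-cytoskeleton linker moesin, rose to 95.8, 94.8 and 88.1 CPM in shNSD2 libraries, against 58.5, 69.6 and 80.5 CPM in shCTR libraries (log2 fold change 0.42, edgeR adjusted p = 0.0201). IQGAP1, a cytoskeletal scaffold that binds S100P, fell to 126, 109.6 and 103 CPM in shNSD2 libraries, against 212, 163 and 134 CPM in shCTR libraries (log2 fold change -0.59, edgeR adjusted p = 0.0169). Partners called higher numbered 4 without shCTR 4, 1 when shCTR 1 was left out and 0 in edgeR's other 4 such fits, where 1 or 2 had an unadjusted p under 0.05. Partners called lower numbered 3 without shCTR 4, 0 by edgeR without shNSD2 2 or shNSD2 3 (1 at an unadjusted p under 0.05 in each) and 1 in the other 3. Calls over all genes moved likewise. Without shCTR 4 they numbered 4251 higher and 4011 lower, against 2657 and 2605 in the main fit. The other such fits gave 1116 to 1491 higher and 1320 to 1734 lower.

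Annexins are calcium-dependent membrane-binding proteins, several of which pair with S100 dimers. Of 7 tested, 4 rose and 3 were not called, beside 15.5% called higher over all tested genes. All 7 had a positive log2 fold change, with a median of 0.41 beside 0.01 over all tested genes. Of these, ANXA2 could enter the test only by being higher in shNSD2, so its sign carries no information. ANXA4 stood at 41.6, 39.8 and 45.4 CPM in shNSD2 libraries and 25.6, 27.7 and 37.0 CPM in shCTR libraries (log2 fold change 0.49, SE 0.13, edgeR adjusted p = 0.0190). The other 3 that rose were ANXA9 (0.46), ANXA6 (0.41) and ANXA7 (0.41). ANXA2 and ANXA1, named above for S100A10 and S100A11 and not necessarily their only annexin partners, were scarce. ANXA2, which passed the low-count filter only through shNSD2, had 10, 10 and 17 counts in shNSD2 libraries and 4, 10 and 6 in shCTR libraries. ANXA1 had at most 2 counts in any library. The annexins called higher numbered 1 without shNSD2 1, 2 without shNSD2 2, 0 by edgeR without shNSD2 3 (4 at an unadjusted p under 0.05), 1 without shCTR 1, 1 without shCTR 2 and 6 without shCTR 4. Over all genes, calls higher numbered 4251 without shCTR 4 and 1116 to 1491 in the other such fits, against 2657 in the main fit. ANXA4 lost its call without shNSD2 1 (0.50), shNSD2 3 (0.43), shCTR 1 (0.38) or shCTR 2 (0.43), and ANXA9 without shNSD2 3 (0.44). ANXA6 and ANXA7 were called without shCTR 4 and in none of the other 5 fits. With the exon length trend removed 4 annexins were called and the median was 0.32, but ANXA9 was not called (0.29).

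**Figure D3:**
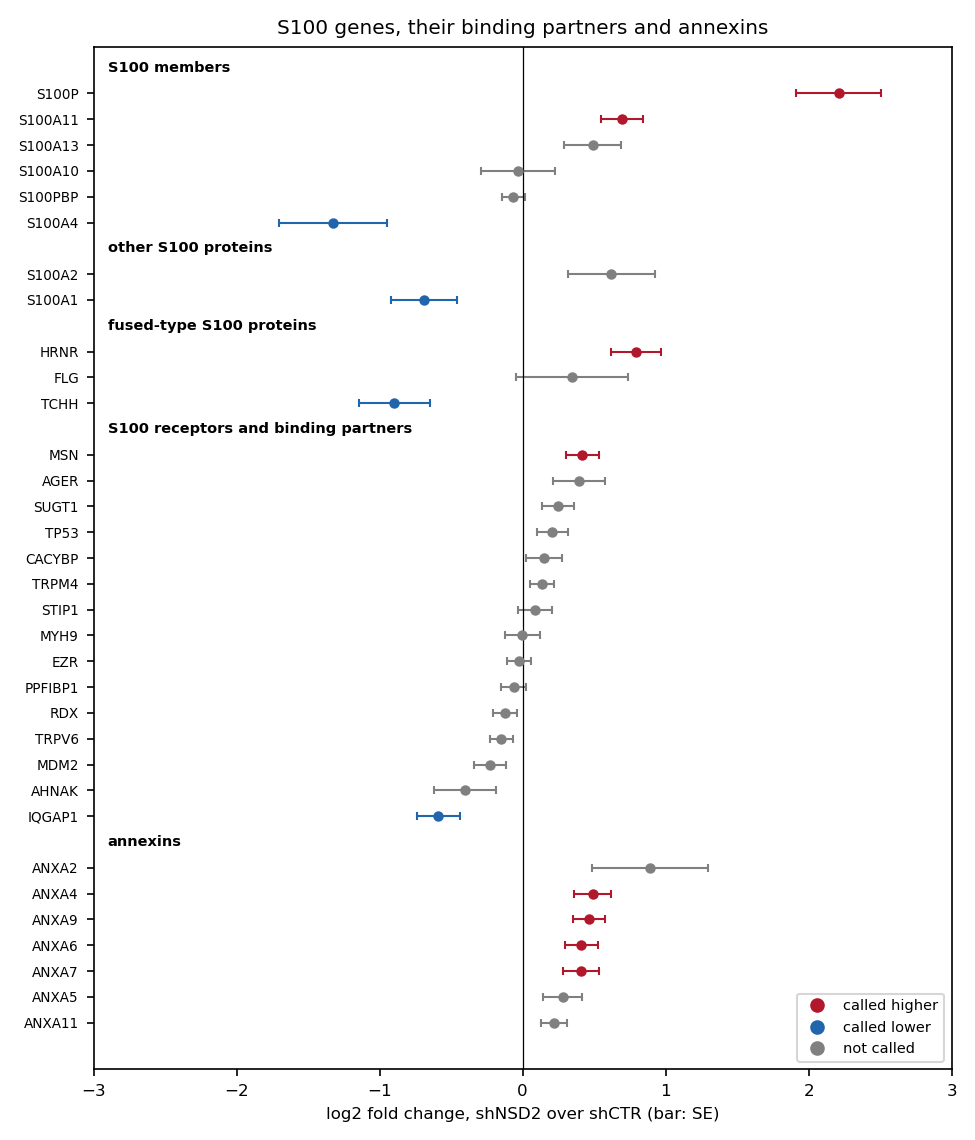
Log2 fold change of shNSD2 over shCTR (x axis, bars SE) for the tested S100 members, other S100 and fused-type S100 genes, S100 receptors and binding partners, and annexins; colour marks the call at an adjusted p under 0.05. S100P at 2.21 stands apart from the rest, and all 7 annexins lie right of 0, although ANXA2 could enter the test only there.

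Of 14 tested protein-coding genes within 500 kb of S100P, 2 rose, 1 fell and 11 were not called, beside 15.5% higher and 15.2% lower over all tested genes. Their median log2 fold change was 0.01, as over all tested genes. The nearest on either side are AC093323.1, at -16.3 kb on its upstream side, at 0.04 (SE 0.09, not called), and MRFAP1L1, at 10.5 kb on the other, which rose by 0.38 (SE 0.11, edgeR adjusted p = 0.0223). MRFAP1L1 was not called once the exon length trend was removed (0.24), nor in 5 of the 6 fits without 1 library, where it ran from 0.27 without shCTR 1 to 0.41 without shNSD2 2. PPP2R2C, a regulatory subunit gene of protein phosphatase PP2A, rose to 62.2, 50.6 and 46.6 CPM in shNSD2 libraries, against 30.4, 37.1 and 34.2 CPM in shCTR libraries (log2 fold change 0.65, edgeR adjusted p = 0.00446). The neighbour counted as fallen was C4orf50, with 4, 4 and 2 counts in shNSD2 libraries and 17, 16 and 11 in shCTR libraries (log2 fold change -2.08). Like S100A4, C4orf50 passed the low-count filter only through shCTR, so it could enter the test only by being lower in shNSD2. The count of neighbours higher was 4 and lower 5 without shCTR 4. Over all genes that fit called 4251 higher and 4011 lower, against 2657 and 2605 in the main fit.

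**Figure D4:**
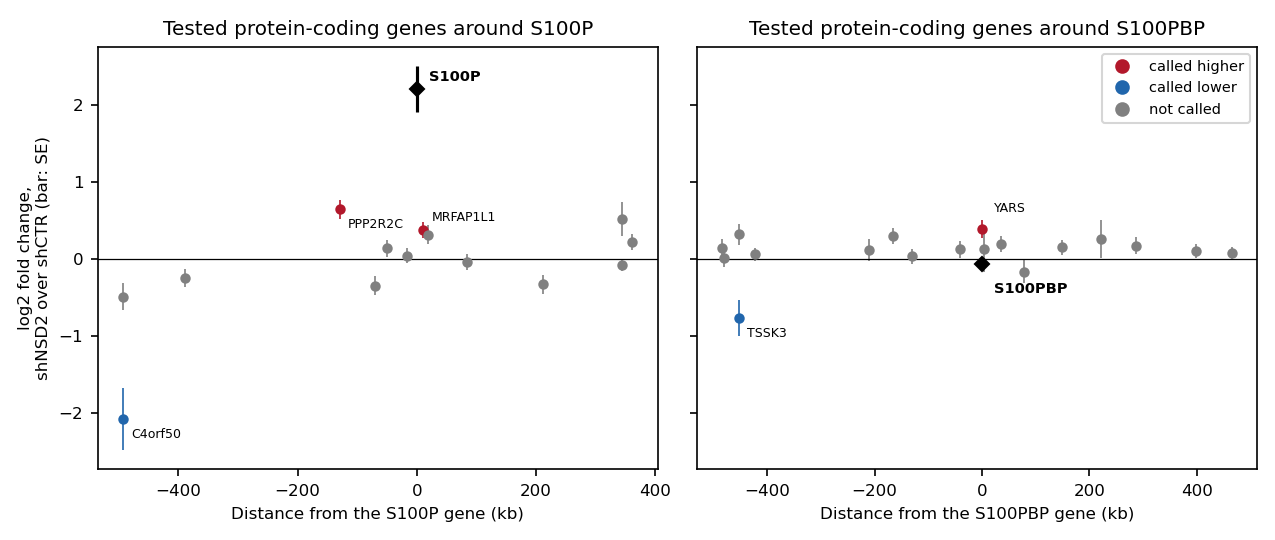
Log2 fold change of shNSD2 over shCTR (y axis, bars SE) of tested protein-coding genes by distance in kb (x axis) from S100P (left) and S100PBP (right), with those genes as black diamonds. S100P at 2.21 lies above all 14 of its tested neighbours, and S100PBP at -0.06 sits beside YARS, which rose.

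Across the S100A region of chromosome 1, from S100A10 to S100A1 with 500 kb on either side, 31 other protein-coding genes were tested. Of these, 3 rose, 4 fell and 24 were not called, beside 30.7% called over all tested genes, with a median of 0.11. The 31 include S100A1, S100A2, HRNR, TCHH and FLG, so the calls of HRNR, TCHH and S100A1 are those already given above. The largest called differences were those of TCHH and HRNR. The nearest tested genes outside the span were THEM4, which rose by 0.36 on the log2 scale (SE 0.11, edgeR adjusted p = 0.0335), and CHTOP, at 0.08 (SE 0.08, not called). Around S100PBP, 18 genes were tested, 1 rose (YARS) and 1 fell, beside the same 30.7%, with a median of 0.13. The gene that fell was TSSK3 (-0.77, SE 0.24, edgeR adjusted p = 0.0326), a low-level gene. Beyond the overlapping YARS, FNDC5 and KIAA1522 were the nearest tested genes on either side, at 0.13 each and not called. Without shCTR 4, 11 genes rose and 7 fell in the S100A region, and 6 rose around S100PBP. Calls were more numerous over all genes too in that fit, 4251 higher and 4011 lower, against 2657 and 2605 in the main fit. THEM4 was called without shCTR 4 but in none of the other 5 such fits (0.26 without shCTR 1 to 0.42 without shNSD2 1). TSSK3 lost its call without shNSD2 1, shNSD2 3, shCTR 1 or shCTR 2 (-0.60 without shNSD2 1 to -0.82 without shCTR 2).

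Genes with a profile like that of S100P were sought among tested genes averaging 5 CPM or more, by the Euclidean distance of log2 CPM centred on each gene's mean over the 6 libraries. The 6 nearest were DUX4L26 (distance 0.86), the carnitine acetyltransferase gene CRAT (0.91), the phosphodiesterase gene PDE2A (0.96), the zinc-finger gene ZSCAN18 (0.97), the Ras-like GTPase gene RASD1 (0.97) and the MAP kinase phosphatase gene DUSP4 (1.16). Their Pearson correlations with S100P over the 6 libraries were 0.97 to 0.99, a description that reflects mainly the difference between the groups. CRAT stood at 27.1, 19.7 and 20.71 CPM in shNSD2 libraries and 4.002, 7.99 and 7.54 CPM in shCTR libraries. DUX4L26 is one of many near-identical DUX4-like copies, so the counting could divide its reads between copies. The control of lowest CPM was shCTR 1 for all 6, as for S100P, which follows from choosing them by likeness to its profile.

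**Figure D5:**
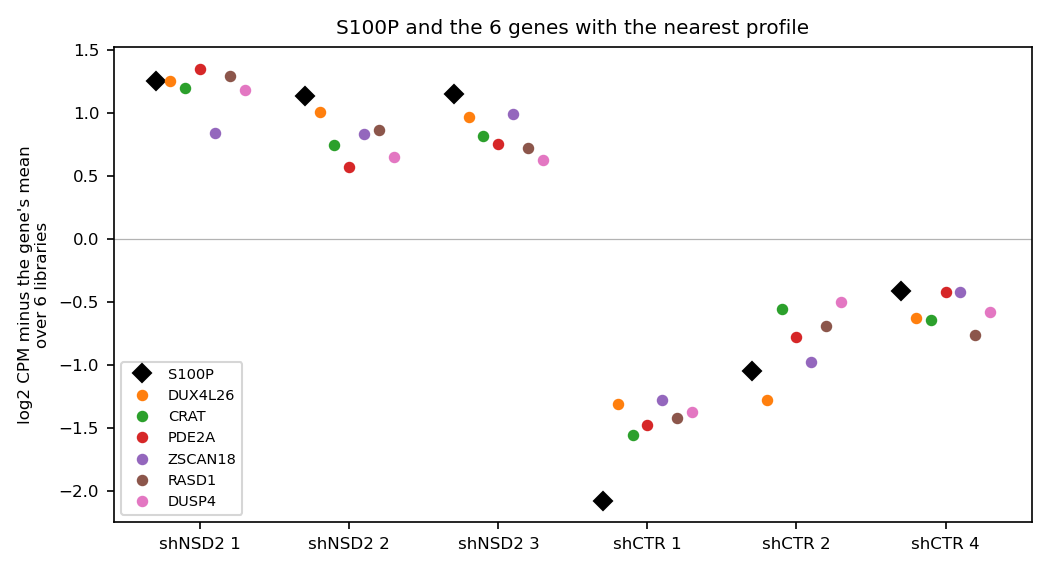
Log2 CPM minus each gene's mean over the 6 libraries (y axis) in each library (x axis, shNSD2 left of shCTR) for S100P (black diamonds) and the 6 genes with the nearest profile. All 7 genes lie above 0 in the shNSD2 libraries and below 0 in the shCTR libraries, and S100P has the lowest point, in shCTR 1.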

How the data were processed

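The deposited table holds raw read counts per gene, by Ensembl identifier and symbol, without normalization, judged from whole numbers with unequal totals. CASAVA 1.8.2, STAR 2.6.0a and the build GRCh38 are listed, without roles, per the submitters' processing notes. For the counter, annotation release, strand setting and row filters, nothing was found (not given in the sources used here). Libraries were made with an mRNA kit, per the labels' protocols. Groups came from sample titles.

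All genes were fitted with edgeR 4.0.16 in R 4.3.3 (filterByExpr, TMM, quasi-likelihood test, no covariate, Benjamini-Hochberg over 17160 genes), which was tested on simulated data. The simulated libraries held no exon length trend and no library that stood apart from its group, so they do not check the fit under those features. They also changed only a small share of genes and gave every gene the same dispersion. The fit is therefore not checked at the share of genes called here. Standard errors came from the fold change and F statistic. Alternatives used DESeq2 1.42.0, limma 3.58.1 (voom), other scalings and filters, a robust fit, a replicate block, each library left out, and, added after the data were seen, removal of a lowess trend on exon length. Positions and exon lengths came from GENCODE 29, and promoter windows from RefSeq on GRCh38.p14, which covered all 9 members.

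Members and gene lists were chosen with earlier results of these data known. Named genes were the members, up to 4 called genes of smallest p per list (fused-type and other S100 genes also from a mean of 0.5 CPM), the nearest neighbours and the 2 called neighbours of largest fold change, and the 6 genes nearest S100P in profile. AGER, EZR, ANXA1, ANXA2, S100A9 and S100G were added for their known roles after their values were seen. One luminal marker gene and one promoter motif are not reported here.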

Additional observations from a re-analysis of the deposited data

How the results depend on the processing

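S100P and S100A11 kept their direction and call in all 15 alternatives. The log2 fold change of S100P ran from 1.87 to 2.65 with 1 library left out. With the replicate number as a block it was 2.73. Numbers 3 and 4 each occur in only 1 library, so shNSD2 3 and shCTR 4 add nothing to the fold change under the block. No label says that the numbers pair libraries, so the main fit has no block. Libraries that share a number correlated at 0.04 and -0.18 in their deviations from the group means. Those of unlike number ran from -0.43 (shNSD2 3 with shCTR 2) to 0.48 (shNSD2 1 with shCTR 2). With so few libraries per group, these correlations cannot settle whether the numbers pair. S100A13 was called under the block (log2 fold change 0.71), and the calls of S100A1, ANXA9 and TSSK3 were lost. With 1 library left out, genes called higher numbered 1116 to 4251 and lower 1320 to 4011, the highest without shCTR 4. Members higher numbered 2 to 3 and lower 0 to 1. Other S100 genes lower were 0 to 1, fused-type S100 lower 0 to 1, binding partners 0 to 4 higher and 0 to 3 lower, annexins 0 to 6 higher, other EF-hand genes 2 to 13 higher and 1 to 2 lower. Neighbours of S100P were 1 to 4 higher and 1 to 5 lower, genes of the S100A region 1 to 11 higher and 1 to 7 lower, and genes near S100PBP 0 to 6 higher and 0 to 1 lower. Where edgeR gave 0 in these fits, 0 to 4 genes had an unadjusted p under 0.05.

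By the DESeq2 Wald test, 0 members, 0 other S100 genes, 0 fused-type S100 genes and 0 genes near S100PBP were lower (1, 0, 1 and 1 at an unadjusted p under 0.05), 2 near S100P were lower and 2 of the S100A region were lower. Over all genes this test called 2307 higher and 2369 lower, against 2657 and 2605 in the main fit. Requiring 1 CPM in 3 libraries removed S100A4 from the test and left 0 members lower (0 at an unadjusted p under 0.05), with 2 genes lower near S100P. Without the low-count filter 0 other S100 genes were lower (1 at an unadjusted p under 0.05). With DESeq2 size factors 3 genes near S100P were lower, and with plain library sizes 2 near S100PBP were higher. Over all genes, 2566 were lower with the 1 CPM filter, 2499 without a filter and 2700 with DESeq2 size factors. With plain library sizes 2787 were higher. The replicate block left 0 other S100 genes lower and 0 genes near S100PBP lower (0 and 1 at an unadjusted p under 0.05), and gave 4 binding partners higher and 3 lower, 4 genes higher and 5 lower near S100P, and 8 higher in the S100A region. Calls over all genes also rose under the block, to 3242 higher and 3001 lower. With the exon length trend removed, 2 binding partners were higher, 1 gene higher and 2 lower near S100P, and 5 higher in the S100A region. Over all genes that fit called 2637 higher and 2623 lower. Because shCTR 4 adds nothing to the fold change under the block, the block's counts are not separate from those without shCTR 4. The cause of these shifts was not tested. Counts under the floor of 3 limit S100A14 and S100A16.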

Other observations

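EF-hand proteins outside the S100 family, which share the calcium-binding loop but not the S100 fold, included 25 tested genes, of which 8 rose and 2 fell, beside 15.5% higher and 15.2% lower over all tested genes. Their median log2 fold change was 0.30, beside 0.01 over all tested genes. CIB1, a small calcium- and integrin-binding protein gene, rose to 115, 112 and 121 CPM in shNSD2 libraries, against 71.0, 73.5 and 90.8 CPM in shCTR libraries (log2 fold change 0.57, SE 0.10, edgeR adjusted p = 0.00439). CAPN1, the large subunit gene of the protease calpain 1, rose by 0.41 on the log2 scale and EFHD2 by 0.39 (edgeR adjusted p = 0.00911 and 0.0159). CALU, which encodes calumenin, a calcium-binding protein of the secretory pathway, fell to 316, 324 and 276 CPM in shNSD2 libraries, against 583, 488 and 393 CPM in shCTR libraries (log2 fold change -0.68, SE 0.14, edgeR adjusted p = 0.00708). Between 2 and 13 of these genes were called higher with 1 library left out, 13 of them without shCTR 4. Over all genes, 4251 were called higher without shCTR 4 and 1116 to 1491 in the other such fits, against 2657 in the main fit. EFHD2 lost its call without shNSD2 3 (0.36) or shCTR 2 (0.40), and CIB1, CAPN1 and CALU kept theirs in each such fit. With the exon length trend removed, 7 were higher and 2 lower, with a median of 0.22.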
